A study of Mus musculus with 26 samples.

Results

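Antigen presentation by the major histocompatibility complex (MHC) was followed in 26 RNA sequencing libraries of mouse mammary tumors and tumor organoids through 10 genes, 5 of the class I pathway (H2-K1, H2-D1, B2m, Tap1 and Psmb8) and 5 of the class II pathway (H2-Aa, H2-Ab1, H2-Eb1, Cd74 and Ciita). They were taken by symbol after the versioned Ensembl IDs of the count tables had been matched to GENCODE M21, and they are 10 of 37310 gene IDs. All 10 passed the filter on low counts in every fit. All groups, controls included, were of the C57BL/6 strain and carried the MMTV-PyMT transgene, in which a viral promoter active in mammary epithelium drives the middle T oncogene of polyoma virus. The tumors came from mice injected under the skin with 125 mg/kg per week, for several weeks, of ASO1 (3 libraries), ASO2 (4 libraries) or scASO (3 libraries). ASO1 and ASO2 are antisense oligonucleotides against Malat1, an abundant nuclear long noncoding RNA, and scASO is the oligonucleotide that served as their control. The organoids, epithelial clusters of such tumors kept in Matrigel with FGF2, received 500 nM of ASO1, ASO2 or scASO for 6 days with a renewal after 3 days, or were labelled Mock, with 4 libraries in each of these 4 groups. The labels give no age, and they say neither whether the libraries of a group came from separate mice or cultures nor which tumors gave which organoids, so that p-values speak for the scatter of these libraries alone, part of which may be technical.

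Class I molecules, built from a heavy chain such as H2-K1 or H2-D1 and the light chain B2m, show peptides from inside the cell to CD8 T cells and are made by nearly all nucleated cells. Their peptides are cut by proteasomes, among them the immunoproteasome, of which Psmb8 is a catalytic subunit. They are carried into the endoplasmic reticulum by the transporter that Tap1 forms with Tap2. Class II molecules, pairs of an alpha and a beta chain, show peptides from ingested material to CD4 T cells and are made mainly by dendritic cells, macrophages and B cells, and by other cells under interferon gamma. H2-Aa and H2-Ab1 are the alpha and beta chains of I-A, H2-Eb1 is the beta chain of I-E, Cd74 is the invariant chain that guides class II molecules to the compartment where peptides are loaded, and Ciita is the coactivator that class II transcription depends on. C57BL/6 mice carry a defective gene for the alpha chain of I-E, and in these tables its entry, H2-Ea-ps, held 0 reads in 24 libraries and 1 read in each of 2 tumors.

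The promoters of the class I heavy chains and of the class II chains share a module known as the X and Y boxes, to which the RFX factors and NF-Y bind, and many class I promoters also hold an element bound by interferon regulatory factors (IRF). A promoter sequence was matched for 7 of the 10 genes, all but H2-Ab1, Cd74 and Ciita. It is shown for 4 genes, a heavy chain, the light chain and both class II chains with an entry, because class I and class II genes differed in how far tumors and organoids lay apart. Each sequence is from RefSeq on GRCm38.p6, is written 5′ to 3′ on the strand of the gene, and covers 250 bases before the start site and 25 from it on. Capitals mark matches, on either strand, to CTGATTGG (the Y box), GCAAC (the core of the X box) and AANNGAAA (the core of an IRF element).
H2-K1, chr17:34000323-34000597, minus strand: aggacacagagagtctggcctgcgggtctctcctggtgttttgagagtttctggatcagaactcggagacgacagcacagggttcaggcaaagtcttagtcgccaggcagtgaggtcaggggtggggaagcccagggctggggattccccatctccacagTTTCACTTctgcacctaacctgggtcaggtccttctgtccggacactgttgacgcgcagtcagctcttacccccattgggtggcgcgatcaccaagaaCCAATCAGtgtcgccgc
B2m, chr2:122147437-122147711, plus strand: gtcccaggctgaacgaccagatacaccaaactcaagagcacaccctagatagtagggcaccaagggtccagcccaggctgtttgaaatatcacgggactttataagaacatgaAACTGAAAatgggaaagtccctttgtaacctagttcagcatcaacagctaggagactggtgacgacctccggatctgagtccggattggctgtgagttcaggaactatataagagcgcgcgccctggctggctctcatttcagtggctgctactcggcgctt
H2-Aa, chr17:34287799-34288073, minus strand: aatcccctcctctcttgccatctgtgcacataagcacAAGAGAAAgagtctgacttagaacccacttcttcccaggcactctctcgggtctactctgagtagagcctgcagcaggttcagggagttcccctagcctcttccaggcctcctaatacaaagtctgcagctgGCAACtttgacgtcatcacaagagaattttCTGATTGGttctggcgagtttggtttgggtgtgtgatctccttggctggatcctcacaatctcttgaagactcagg
H2-Eb1, chr17:34305617-34305891, plus strand: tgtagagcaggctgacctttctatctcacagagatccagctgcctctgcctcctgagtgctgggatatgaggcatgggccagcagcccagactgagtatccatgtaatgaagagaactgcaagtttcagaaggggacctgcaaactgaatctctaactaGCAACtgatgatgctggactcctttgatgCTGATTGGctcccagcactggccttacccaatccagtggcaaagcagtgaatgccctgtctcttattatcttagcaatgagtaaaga
H2-Aa and H2-Eb1 both held the X core and the Y box in that order, with first bases at -81 and -51 in H2-Aa and at -91 and -62 in H2-Eb1, where the base of the start site counts as 0, and H2-Aa also held an IRF core at -213. H2-K1 held a Y box on the opposite strand at 8 and an IRF core at -90, and B2m held an IRF core at -137. The IRF and Y matches of H2-K1 have counterparts amid like letters in H2-D1, at -150 and -53. Their places thus depend on the RefSeq start site of each gene. Of the genes not shown, H2-D1 held a Y box at -53, X cores at -212 and -14 and an IRF core at -150, Tap1 held a Y box at -222 and an X core at -196, and Psmb8 held none of these but a match to TTCNNNGAA, the interferon gamma activated site, at -97. In all 27025 promoter windows of the same table, each 300 bases long, the Y box was found in 4.31%, the X core in 35.4%, the IRF core in 24.2% and TTCNNNGAA in 8.47%. No marked match overlapped another in the sequences shown, and a match describes letters only. On GRCm38, whereas the counts were made on mm9, 7 of the 10 genes lie on chromosome 17, from H2-K1 (33996017 to 34000347, minus strand) through H2-Ab1 (34257689 to 34269419), H2-Aa (34282744 to 34287823, minus strand) and H2-Eb1 (34305867 to 34316674) to H2-D1 (35262730 to 35267499), with Tap1 at 34187553 to 34197225 and Psmb8 at 34197721 to 34201454. B2m lies on chromosome 2 (122147686 to 122153083) and Ciita on chromosome 16 (10480059 to 10528418).

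Libraries held 9939520 to 51363552 reads assigned to genes in tumors and 23973533 to 65146030 in organoids, and levels are given as CPM, counts brought to the same library size after TMM adjustment. Malat1, the targeted RNA, stood at 1569, 1914 and 847 CPM in scASO tumors, at 401 to 824 CPM in ASO1 tumors and at 381 to 913 CPM in ASO2 tumors, so that ASO2 tumors overlapped scASO tumors and ASO1 tumors lay just under them. In organoids Malat1 stood at 87.0 to 186 CPM with ASO1, at 713 to 1578 CPM with Mock, at 95.6, 219 and 307 CPM in 3 ASO2 libraries and at 781, 836 and 1191 CPM in 3 scASO libraries. The library labelled ASO2 replicate 1 stood at 1485 CPM and the library labelled scASO replicate 2 at 119 CPM, both against their labels. Organoid results are given with them and, for part of the comparisons, also without them. Organoid libraries that share a replicate number deviated together from their group means, whereas tumors did not, so that organoid comparisons were also fitted with the number as a block. Luminal epithelial keratins and adhesion genes (Krt8, Krt18, Krt19, Epcam and Cdh1) summed to 2384 to 4472 CPM in tumors and to 4593 to 9135 CPM in organoids. Ptprc, the pan-leukocyte CD45, stood at 12.6 to 45.1 CPM in tumors and at 0.222 to 4.66 CPM in organoids.

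Tumors held far more class II RNA than organoids, and class I RNA differed less. Among controls, the 5 class II genes were all lower in scASO organoids than in scASO tumors (edgeR's quasi-likelihood test, adjusted p under the threshold of 0.05), H2-Aa, H2-Eb1 and Cd74 to 1.81%, 2.0% and 3.24% of the tumor level. Of the 5 class I genes, H2-K1 and Psmb8 were lower, to 52.2% and 42.4%, and H2-D1, B2m and Tap1 did not pass the test. Over all 18695 genes tested, 23.5% passed in either direction, against 7 of the 10 antigen presentation genes, all 7 lower. The median log2 fold change was -0.77 for class I and -4.95 for class II, against -6.03e-04 over all genes. The comparison sets grown tissue beside culture, with other doses and treatment times, and these cannot be told apart. In bulk RNA, fewer cells of a type and less RNA per cell cannot be told apart either.

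H2-Aa stood at 168, 98.3 and 162 CPM in the scASO tumors and at 0.553, 0.472, 6.61 and 2.94 CPM in the scASO organoids. The highest of these organoids, at 152 reads, lay far under the lowest tumor, at 3765 reads, and the log2 fold change was -5.79 ± 1.12 (SE, adjusted p = 9.33e-04). Over all libraries the range of H2-Aa was 52.6 to 565 CPM in tumors and 0.0548 CPM (2 reads) to 9.54 CPM in organoids. H2-Eb1, which lacks its alpha chain partner in this strain, followed at 157, 101 and 144 CPM in scASO tumors and 1.27, 1.11, 5.96 and 2.49 CPM in scASO organoids, with a log2 fold change of -5.65 ± 0.93 (adjusted p = 2.41e-04). Cd74, the invariant chain, stood at 288, 199 and 299 CPM against 4.03, 4.33, 17.1 and 8.54 CPM, with a log2 fold change of -4.95 ± 0.93 (adjusted p = 7.46e-04). In each of these 3 genes the same pair of scASO organoids, replicates 3 and 4, held the higher values.

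H2-Ab1, the partner of H2-Aa, was lower by less: 110, 70.5 and 115 CPM in scASO tumors against 9.64, 9.03, 16.5 and 31.1 CPM in scASO organoids, a log2 fold change of -2.57 ± 0.64 (adjusted p = 0.00622). The 2 groups did not overlap, as was the case for 9 of the 10 genes (all but Tap1), against 40.4% of all genes tested. The highest organoid was again far from the lowest. Ciita, the coactivator, stood at 9.43, 7.34 and 8.43 CPM in scASO tumors and at 3.32, 2.94, 3.83 and 1.41 CPM in scASO organoids. Its log2 fold change was -1.55 ± 0.50 (adjusted p = 0.0290), so that it fell to 34.3% of the tumor level, and its lowest organoid was replicate 4, in which H2-Ab1 was highest. For H2-Aa, H2-Ab1, H2-Eb1, Cd74 and Ciita the ranges over all 10 tumors and all 16 organoids did not overlap. These are 5 of the 10 genes, all lower in organoids, against 10.9% of all genes tested with ranges apart in either direction.

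H2-K1, the heavy chain of H-2K, stood at 1958, 1396 and 1299 CPM in scASO tumors and at 709.5, 846, 793 and 889 CPM in scASO organoids. These groups did not overlap, and the log2 fold change was -0.94 ± 0.31 (adjusted p = 0.0299). Psmb8 stood at 82.5, 65.8 and 51.7 CPM against 18.6, 20.6, 42.5 and 31.6 CPM, with a log2 fold change of -1.24 ± 0.38 (adjusted p = 0.0219). For H2-D1 the values were 1275, 969 and 1066 CPM in tumors and 604.5, 690, 610 and 694 CPM in organoids, which also did not overlap, but the log2 fold change of -0.76 ± 0.30 did not pass (adjusted p = 0.0672). B2m stood at 1454, 879 and 833 CPM against 669, 818, 591 and 815 CPM, with -0.55 ± 0.45 (adjusted p = 0.383), and its lowest tumor lay just above its highest organoid. Tap1 overlapped between the groups, at 130, 91.9 and 98.7 CPM against 55.2, 63.5, 109 and 84.6 CPM, with -0.45 ± 0.35 (adjusted p = 0.354). Over all tumors and all organoids the ranges of each of the 5 class I genes overlapped.

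**Figure D1:**
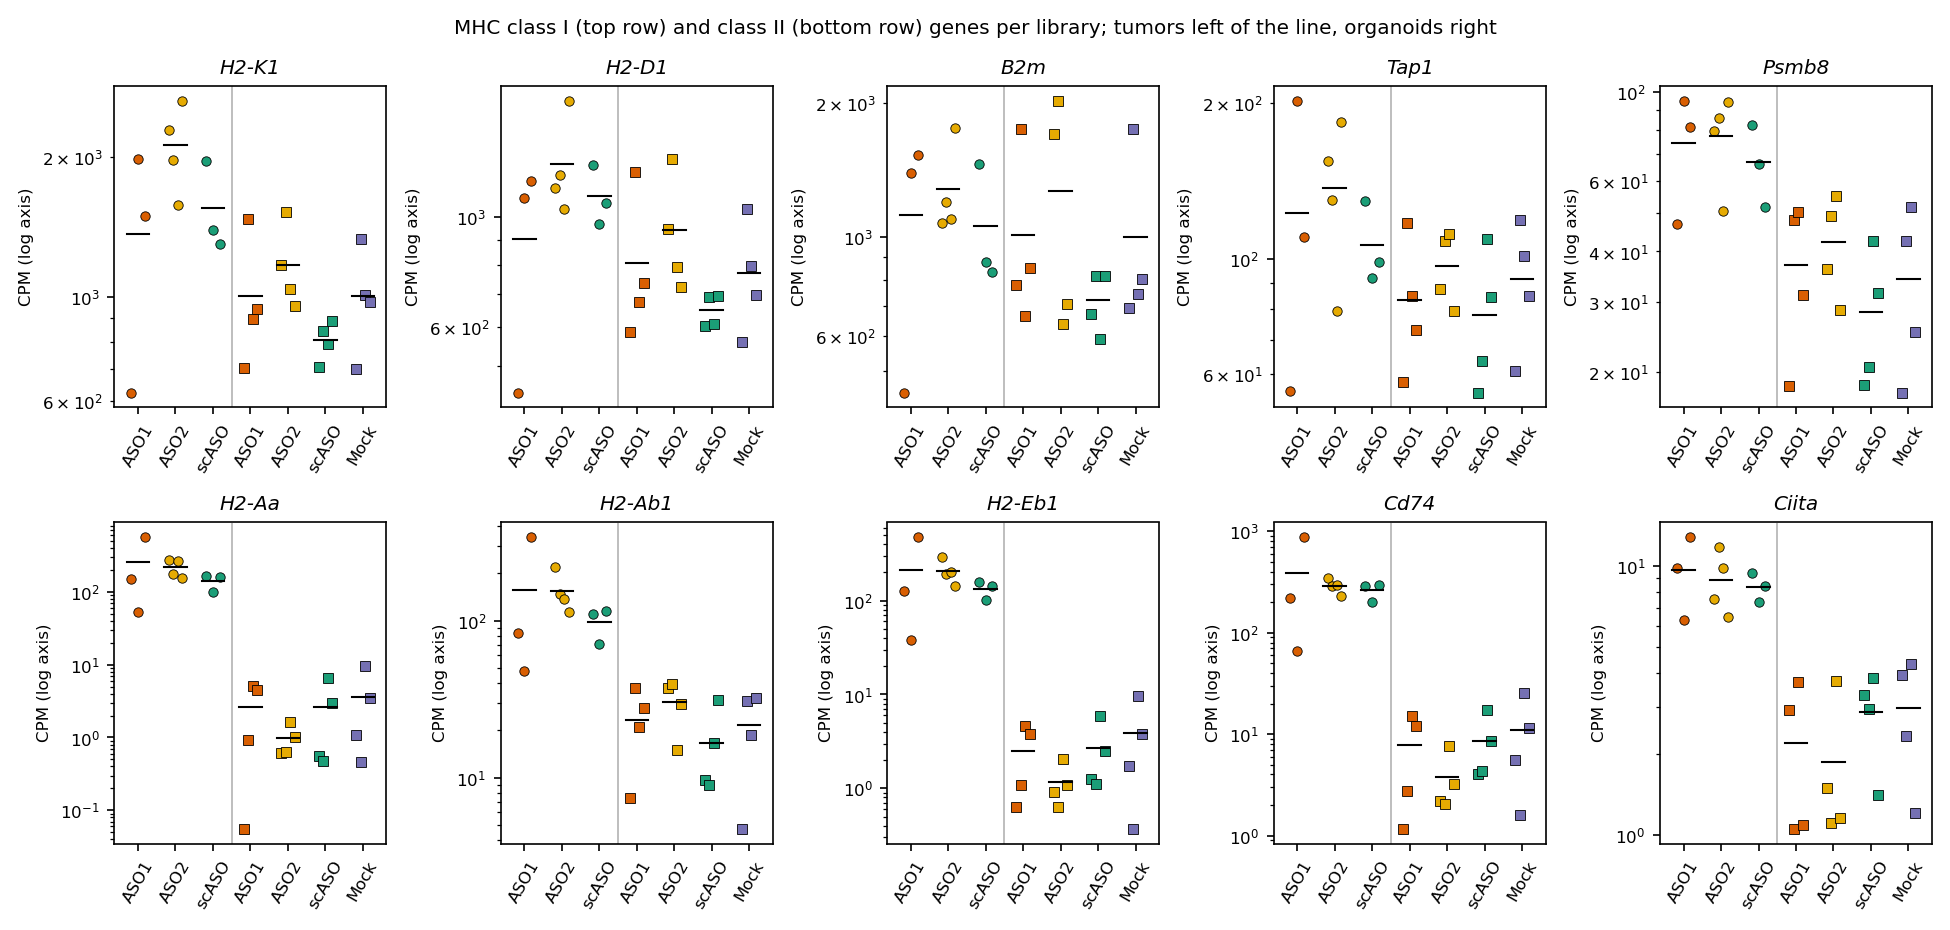
CPM of the 10 antigen presentation genes in each library on log axes, class I in the top panels and class II in the bottom panels. Circles are tumors, squares are organoids, colours are treatment groups and short bars are group means. The 5 class II genes fall into separate ranges in tumors and organoids, as 10.9% of all genes tested do, with H2-Aa at 52.6 to 565 CPM against 0.0548 to 9.54 CPM, whereas the class I genes overlap.

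The calls of H2-Aa, H2-Ab1, H2-Eb1 and Cd74 held in all 7 fits that left out a scASO library in turn. The call of H2-K1 was lost without scASO tumor 1 or 2 or scASO organoid 1, 2 or 3 (adjusted p = 0.0527 to 0.141 over these). That of Psmb8 was lost without scASO tumor 1 or 2 or organoid 1 or 2, and that of Ciita without any one scASO tumor or without organoid 2 or 4. Without both libraries that go against their labels, the 4 class II genes named first still passed, at log2 fold changes of -5.42 for H2-Aa, -2.37 for H2-Ab1, -5.38 for H2-Eb1 and -4.73 for Cd74. H2-K1, Psmb8 and Ciita then stood at -0.96, -1.11 and -1.56, with adjusted p-values of 0.0642, 0.0744 and 0.0665.

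**Figure D2:**
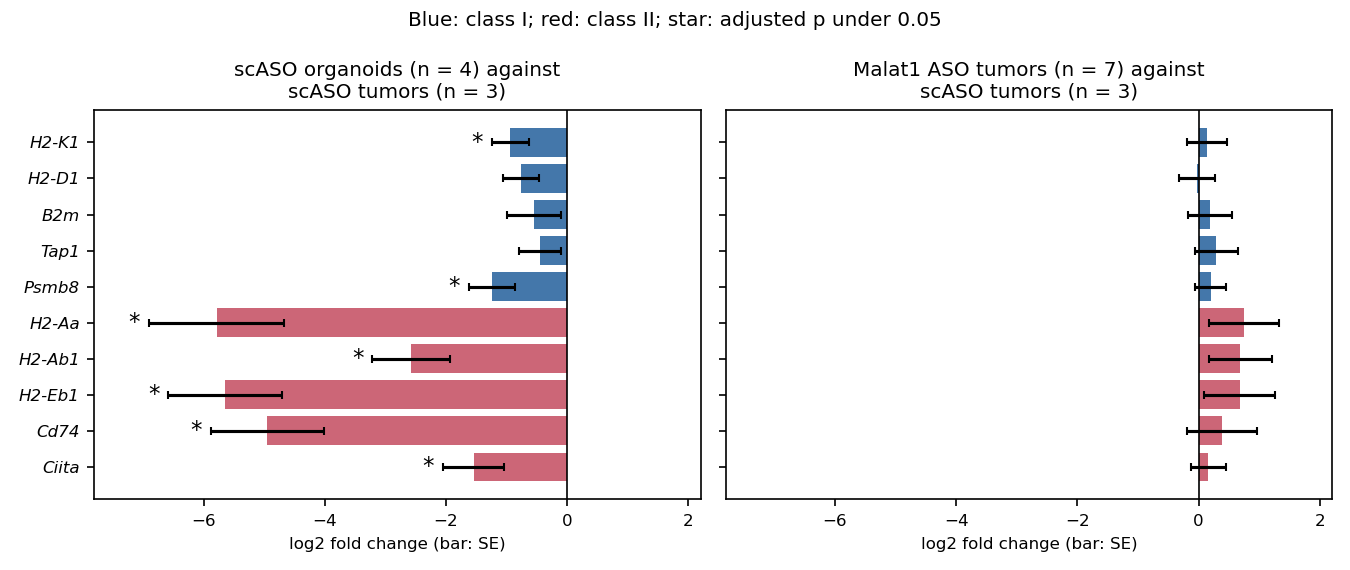
Log2 fold changes with standard errors of the 10 genes, scASO organoids against scASO tumors on the left and Malat1 ASO tumors against scASO tumors on the right. Stars mark an adjusted p under 0.05 in edgeR's test. On the left the bars of H2-Aa, H2-Eb1 and Cd74 reach -5.79, -5.65 and -4.95, and on the right no bar has a star.

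Compared per kilobase of exon, which allows levels of different genes to be ordered, B2m was the most abundant of the 10 genes in both scASO groups, at 1227 ± 402 CPM per kilobase in tumors (SD, n = 3) and 841 ± 131 in organoids (SD, n = 4). H2-K1 and H2-D1 came next, at 528 ± 121 and 428 ± 60.7 CPM per kilobase in tumors and 275.4 ± 26.3 and 252 ± 19.0 in organoids. Their ranges overlapped in both groups. Within each library, however, H2-D1 lay under H2-K1, at a ratio of 0.572 to 0.935 over all tumors and 0.815 to 0.979 over all organoids. In tumors Cd74 followed at 156 ± 32.5 CPM per kilobase and then H2-Eb1 at 68.8 ± 15.1, above H2-Ab1 at 38.3 ± 9.47 and H2-Aa at 37.6 ± 10.2, which overlapped. Psmb8 and Tap1, at 19.7 ± 4.55 and 19.5 ± 3.68 CPM per kilobase, were the lowest in tumors but for Ciita at 0.881 ± 0.110. In organoids the order changed: Tap1 (14.3 ± 4.42 CPM per kilobase) and Psmb8 (8.37 ± 3.27) stood above H2-Ab1 (6.45 ± 3.99) and Cd74 (5.07 ± 3.64), although neighbours from Tap1 down to Ciita (0.301 ± 0.109) overlapped. H2-Eb1 and H2-Aa were then at 1.39 ± 1.16 and 0.696 ± 0.759 CPM per kilobase.

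The other genes of both pathways were read from fixed lists. Of 15 other class II pathway genes tested, 9 were lower in scASO organoids and 1 was higher, against 23.5% of all genes tested in either direction. Among them Ctss, the cathepsin S that trims the invariant chain, was lower at a log2 fold change of -2.70 ± 0.67 (adjusted p = 0.00626). H2-DMa, a chain of the molecule that loads peptides, was lower at -1.60 ± 0.42 (adjusted p = 0.00951), and Cd86, a costimulatory ligand, at -5.61 ± 0.79 (adjusted p = 6.27e-05). H2-Ob, H2-Oa and H2-DMb2, which also passed, held 13 to 43 reads in each scASO tumor and 0 or 1 read in each scASO organoid, so that no fold is given for them. The gene that was higher was Ctsl, cathepsin L, at 1.17 ± 0.27 (adjusted p = 0.00371). Rfx5, Rfxap and Rfxank, the subunits of the RFX complex, stood at 0.23 ± 0.28, -0.27 ± 0.23 and 0.23 ± 0.18 and did not pass.

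Of 18 other class I pathway genes tested, 3 were lower in scASO organoids and 1 was higher, a share near the 23.5% of all genes tested that passed in either direction. H2-Q4, a class I heavy chain of the Q region, was lower at -1.37 ± 0.38 (adjusted p = 0.0128), and Cd1d1, which presents lipids, at -0.88 ± 0.25 (adjusted p = 0.0143). Psme1, a subunit of the proteasome activator PA28, was lower at -0.77 ± 0.23 (adjusted p = 0.0207), and Canx, the chaperone calnexin, was higher at 0.68 ± 0.22 (adjusted p = 0.0257). Nlrc5, the class I counterpart of Ciita, stood at -1.10 ± 0.46 and did not pass (adjusted p = 0.0859). Of 13 interferon gamma signalling genes tested, Irf8, a factor of myeloid and B cells, was lower at -2.86 ± 0.52 (adjusted p = 5.75e-04) and Ifngr2, a receptor chain, was higher at 0.91 ± 0.25 (adjusted p = 0.0110). The share called in this list lay under that of all genes. Irf1, a transcription factor induced by interferon gamma, stood at -0.11 ± 0.35 and did not pass (adjusted p = 0.843). Ifng itself was listed with 0 reads in all 16 organoids and with at most 2 reads in a tumor.

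Markers of some other cells were also lower in scASO organoids. In the same comparison 4 of 5 pan-leukocyte markers, 6 of 10 macrophage markers, 4 of 9 dendritic cell markers, 8 of 9 T and NK cell markers and 1 of 3 tested B cell markers were lower. Of all 18695 genes tested, 23.5% passed, 2256 of them lower and 2136 higher. The pan-leukocyte markers summed to 300.0 to 464 CPM in scASO tumors and to 263 to 512.5 CPM in scASO organoids, a sum in which Lcp1 (0.43 ± 0.33, adjusted p = 0.351) holds the largest share, whereas Ptprc was lower at -3.68 ± 0.70 (adjusted p = 7.82e-04). The macrophage markers summed to 395 to 653 CPM in scASO tumors and to 61.3 to 181 CPM in scASO organoids, and the dendritic cell markers to 29.6 to 36.2 CPM and 8.37 to 12.4 CPM. The T and NK cell markers summed to 9.95 to 13.7 CPM in scASO tumors and to 0.290 to 1.18 CPM in scASO organoids, with Cd8a, Nkg7, Ncr1 and Gzmb at 0 reads in every organoid. The fibroblast and endothelial markers had 3 of 6 and 3 of 5 lower, none of the 5 luminal and 5 skeletal muscle markers passed, 1 of 5 adipocyte markers was lower and 3 of 5 basal epithelial markers were higher. A single called marker, as in the B cell and adipocyte lists, cannot be set apart from the share of all genes. The part of these cells in the class II difference was not tested.

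Within each system the class I and the class II genes did not move as 1 block. In tumors the ratio of H2-Ab1 to H2-Aa, the partner chains of I-A, was narrow, 0.771 to 1.35 per kilobase over 10 tumors. The ratios of H2-Eb1 and Cd74 to H2-Aa, given below, were about as narrow there, so that this was not particular to the partner chains. In organoids the ratio of H2-Ab1 to H2-Aa ran from 2.89 to 200, with a median of 20.7, over 16 libraries in which H2-Aa had 2 to 376 reads and H2-Ab1 175 to 1728 reads. The lowest organoid ratio, in Mock replicate 3, lay above the highest of any tumor. The highest came from ASO1 replicate 1, where H2-Aa had 2 reads, and the next highest was 99.1, in Mock replicate 2 with 15 reads. The ratio of Cd74 to H2-Aa was 2.53 to 4.58 in the tumors and 5.86 to 47.5 in the organoids, again without overlap. The ratio of H2-Eb1 to H2-Aa, 1.41 to 2.11 and 1.56 to 22.5, overlapped, as did that of B2m to H2-K1 (1.61 to 3.50 and 2.09 to 4.97) and that of H2-D1 to H2-K1 (0.572 to 0.935 and 0.815 to 0.979).

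Among organoids the members followed the replicate number, in different ways for different genes. H2-Aa had medians of 0.587, 0.553, 5.84 and 3.23 CPM in numbers 1 to 4, and Cd74 of 3.10, 2.41, 16.2 and 10.1 CPM, so that both were high in numbers 3 and 4. Ptprc had the same order, with medians of 0.793, 0.604, 3.14 and 1.97 CPM, and Ctss had 5.41, 8.41, 24.6 and 27.5 CPM. Cd68, a macrophage marker, had another order, with medians of 9.43, 35.21, 12.45 and 43.22 CPM. The part of leukocytes in these orders was not tested. Every number 3 or 4 library held more H2-Aa than every number 1 or 2 library except that ASO2 replicate 4 (1.02 CPM) lay under Mock replicate 1 (1.07 CPM). H2-Ab1 had another order, with medians of 8.53, 33.8, 17.6 and 30.3 CPM, and B2m another again, with 736.5, 1744, 652 and 810 CPM. Ciita had medians of 3.12, 1.73, 3.79 and 1.19 CPM and was lowest in number 4. Nlrc5 had medians of 17.8, 43.6, 16.8 and 27.1 CPM, highest in number 2 as was B2m. The labels do not say what a replicate number shares.

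The libraries that go against their labels on Malat1 also stood apart on these genes. B2m was at 1704 CPM in the library labelled ASO2 replicate 1, against 669 to 779 CPM in the other number 1 libraries, and at 818 CPM in the library labelled scASO replicate 2, against 1743 to 2022 CPM in the other number 2 libraries. H2-Ab1 was at 37.2 CPM in the first, against 4.67 to 9.64 CPM, and at 9.03 CPM in the second, against 30.6 to 39.5 CPM. In both genes the value of each of these libraries lay within or beside the range of the other number.

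**Figure D3:**
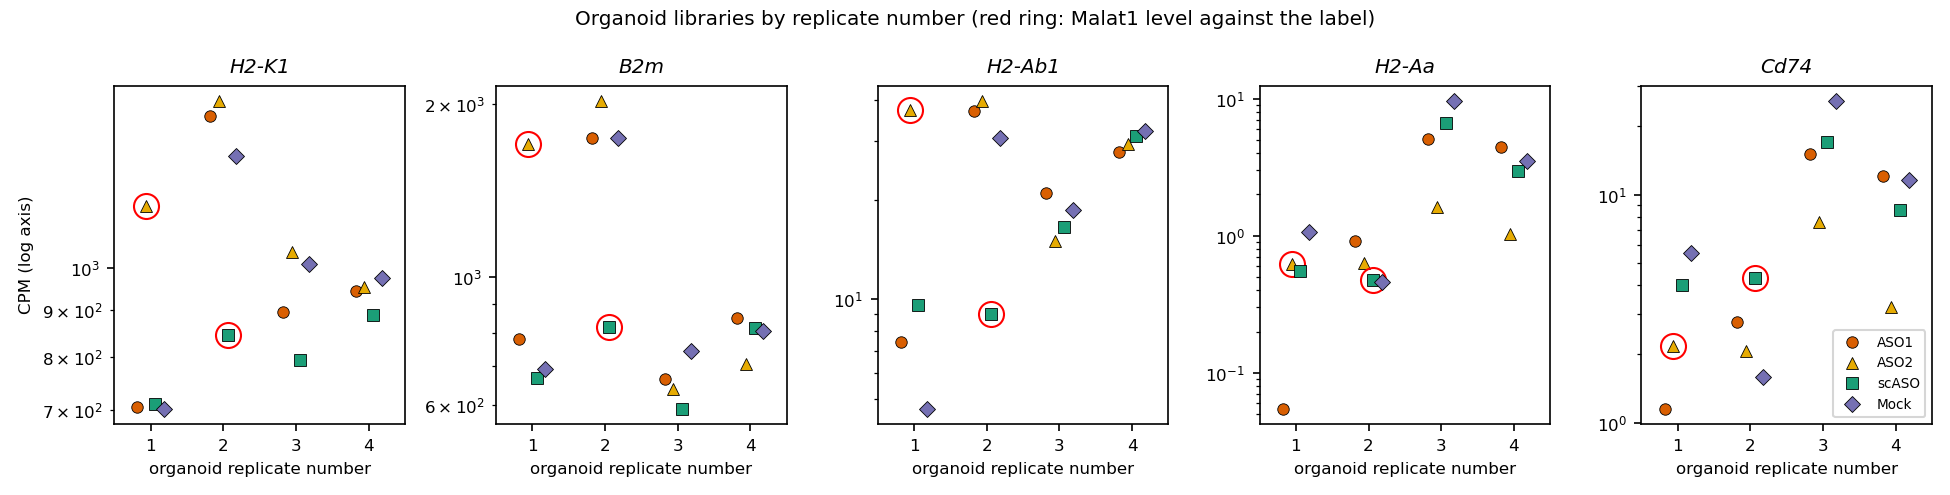
CPM of H2-K1, B2m, H2-Ab1, H2-Aa and Cd74 in the 16 organoid libraries by replicate number, on log axes, with a symbol for each treatment group. Red rings mark the libraries whose Malat1 level goes against the label. H2-Aa and Cd74 are highest in number 3, with medians of 5.84 and 16.2 CPM, and B2m is highest in number 2, with a median of 1744 CPM.

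In tumors no antigen presentation gene differed between Malat1 ASO and scASO beyond the spread between libraries. For both ASOs together 0 of 17354 genes passed in edgeR (0%), 1017 had an unadjusted p under 0.05, and DESeq2 called 18. None of the 10 genes was among those with an unadjusted p under 0.05, and the estimates of 9 were above 0, with a median log2 fold change of 0.25 against 0.05 over all genes. The class II chains had the largest estimates: H2-Aa 0.75 ± 0.57, H2-Ab1 0.69 ± 0.52 and H2-Eb1 0.67 ± 0.59 (adjusted p = 0.855 to 0.871). Cd74 stood at 0.38 ± 0.58 and Ciita at 0.16 ± 0.28. Of class I, Tap1 stood at 0.29 ± 0.36, Psmb8 at 0.20 ± 0.26, B2m at 0.19 ± 0.36, H2-K1 at 0.14 ± 0.33 and H2-D1 at -0.02 ± 0.29.

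The tumor values behind these estimates spread widely, most of all in the ASO1 group. H2-Aa stood at 149, 52.6 and 565 CPM in ASO1 tumors and at 277, 177, 264 and 157 CPM in ASO2 tumors, beside 168, 98.3 and 162 CPM with scASO. Cd74 stood at 222, 66.0 and 879 CPM with ASO1 and at 349, 287, 296 and 229 CPM with ASO2. ASO1 tumor 2 was thus the lowest and ASO1 tumor 3 the highest of all 10 tumors in H2-Aa and Cd74, as they were in H2-Ab1 (48.0 and 340 CPM) and H2-Eb1 (38.0 and 476 CPM). Without ASO1 tumor 3 the estimates for both ASOs were 0.06 for H2-Aa, 0.03 for H2-Ab1, -0.04 for H2-Eb1 and -0.36 for Cd74. The summed macrophage markers were 287 CPM in ASO1 tumor 2 and 1188 CPM in ASO1 tumor 3, the lowest and highest of the 10 tumors, and ranged from 395 to 653 CPM in scASO tumors. Of the macrophage markers 8 of 10 and of the dendritic cell markers 8 of 9 had estimates above 0 for both ASOs together, none of them called. So had 6 of 6 fibroblast, 5 of 5 skeletal muscle and 5 of 5 adipocyte markers, none called, with all 5 adipocyte markers at an unadjusted p under 0.05. The median log2 fold change was 3.24 for the adipocyte, 1.90 for the skeletal muscle, 0.69 for the dendritic cell, 0.44 for the macrophage and 0.40 for the fibroblast markers. The adipocyte markers summed to 5.56 to 7.34 CPM in scASO tumors, 6.98 to 20.9 CPM in ASO1 tumors and 20.1 to 499.9 CPM in ASO2 tumors. Their part in the values was not tested.

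Class I set other tumors apart. H2-K1 stood at 623, 1981 and 1492 CPM in ASO1 tumors, at 2278, 1968, 1577 and 2640 CPM in ASO2 tumors and at 1958, 1396 and 1299 CPM in scASO tumors. ASO1 tumor 1 was the lowest of the 10 in H2-K1, as it was in H2-D1 (442 CPM), B2m (446 CPM), Tap1 (55.65 CPM) and Psmb8 (46.7 CPM). ASO1 tumor 2, the lowest in class II, was the highest in Tap1, at 202.5 CPM, and in Psmb8, at 94.9 CPM. ASO2 tumor 4 was the highest in H2-K1, H2-D1 (1716 CPM) and B2m (1759 CPM). From the lowest to the highest tumor the level differed 13.3-fold in Cd74, 12.5-fold in H2-Eb1, 10.7-fold in H2-Aa and 7.08-fold in H2-Ab1, against 4.24-fold in H2-K1 and 2.03-fold in Psmb8 and in Ciita.

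The comparisons of each ASO alone share the scASO tumors. For ASO1, 1 gene passed, or 0.00576%, and 1466 had an unadjusted p under 0.05. That gene, Slc47a1, a transporter of organic cations (4.07 ± 0.45, adjusted p = 0.0442), is not among the 10 and was chosen for naming after its value was seen. The antigen presentation genes had 8 of 10 estimates above 0 and a median of 0.22, and for ASO2, with 0% of genes called and 892 at an unadjusted p under 0.05, 10 of 10 and a median of 0.33. None of the 10 passed in either. DESeq2 called 130 and 44 genes in these comparisons, none of them among the 10. Of the other class I and class II pathway genes and the interferon gamma list, none passed for both ASOs together. The smallest unadjusted p-values were those of Lgmn, an endosomal protease, at 0.58 ± 0.22 (adjusted p = 0.827), of Cxcl9, a chemokine induced by interferon gamma, at 1.92 ± 0.84 (adjusted p = 0.827), and of Erap1, which trims class I peptides, at 0.25 ± 0.15 (adjusted p = 0.835).

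In organoids no antigen presentation gene passed between Malat1 ASO and scASO. For both ASOs 0% of 17126 genes passed and 182 had an unadjusted p under 0.05, and with the replicate block 0% passed and 3157, or 18.4%, had an unadjusted p under 0.05. Of the 10 genes 0 had an unadjusted p under 0.05 without the block and 6 with it. The 5 class I estimates were above 0, with H2-K1 at 0.41 ± 0.21, H2-D1 at 0.42 ± 0.22, B2m at 0.63 ± 0.36, Tap1 at 0.19 ± 0.23 and Psmb8 at 0.46 ± 0.34. Of class II, H2-Ab1 stood at 0.66 ± 0.53 and the other 4 below 0, with H2-Aa at -0.73 ± 0.95, H2-Eb1 at -0.65 ± 0.73, Cd74 at -0.66 ± 0.73 and Ciita at -0.50 ± 0.46. With the block and without the libraries that go against their labels, H2-K1 was at 0.14, B2m at 0.07, Tap1 at -0.09 and H2-Ab1 at -0.15, whereas H2-Aa was at -0.85 and Cd74 at -0.69. For ASO1 alone 0% of genes passed (44 at an unadjusted p under 0.05, and with the block 0% and 1226), and for ASO2 alone 0% (287, and with the block 0% and 3544, or 20.7%). Of the 10 genes, those with an unadjusted p under 0.05 were 0 for ASO1 with and without the block, and for ASO2 1 without and 7 with it. None of the 10 genes passed in any of these fits.

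H2-K1 stood at 704.5, 1471, 896 and 944 CPM in ASO1 organoids, at 1172, 1525, 1042 and 955 CPM in ASO2 organoids, at 709.5, 846, 793 and 889 CPM in scASO organoids and at 701.5, 1330, 1010 and 975 CPM in Mock organoids. B2m stood at 779, 1746, 665 and 850 CPM with ASO1, at 1704, 2022, 639 and 708 CPM with ASO2, at 669, 818, 591 and 815 CPM with scASO and at 694, 1743, 744 and 805 CPM with Mock. The scASO group was the narrowest in both genes, and it is the group that holds a library near the number 1 values under number 2. Cd74 stood at 1.15, 2.76, 15.2 and 12.1 CPM with ASO1, at 2.17, 2.06, 7.56 and 3.22 CPM with ASO2, at 4.03, 4.33, 17.1 and 8.54 CPM with scASO and at 5.56, 1.58, 25.7 and 11.6 CPM with Mock. In H2-K1 the ASO2 and scASO organoids did not overlap, nor did they in H2-D1 (724 to 1311 CPM and 604.5 to 694 CPM), which makes 2 of the 10 genes against 1.59% of all genes tested. For ASO2 alone H2-K1 had an unadjusted p of 0.0402, and of 0.00402 with the replicate block, and did not pass in either (adjusted p = 1 and 0.155). With the block and without the libraries that go against their labels, H2-K1 stood at 0.19 for ASO2 (adjusted p = 0.617), against 0.51 with the block alone. The other groups overlapped in H2-K1, as all groups did in B2m and Cd74, and ordered by mean level each group overlapped the next in all 10 genes within tumors and within organoids.

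Against Mock, both ASOs together gave 0% of genes called without the block (468 at an unadjusted p under 0.05) and 738 genes, or 4.31%, with it, of which 527 were higher. None of the 10 genes was called in either fit. The class II genes other than H2-Ab1 had estimates below 0 without the block: H2-Aa -1.20 ± 0.93, H2-Eb1 -1.18 ± 0.72, Cd74 -1.05 ± 0.72 and Ciita -0.55 ± 0.46. H2-Ab1 stood at 0.28 ± 0.52, and of class I H2-K1, H2-D1, B2m and Psmb8 stood at 0.09 to 0.19 and Tap1 at -0.05. With the block, H2-Eb1 was at -0.88 ± 0.33, Cd74 at -0.91 ± 0.33 and Ciita at -0.58 ± 0.22, with adjusted p-values of 0.163, 0.144 and 0.157. With the block and without the libraries that go against their labels, 1709 genes or 9.86% were called, and H2-Eb1 passed, at -1.07 with an adjusted p of 0.0479. That is 1 of the 10 genes, a share near that of all genes. In that fit H2-Aa stood at -1.22, Cd74 at -1.01 and Ciita at -0.49, with adjusted p-values of 0.0665, 0.0652 and 0.0649. Without Mock replicate 3, the highest of its group, the unblocked estimates were -0.08 for H2-Aa, -0.19 for H2-Eb1 and -0.22 for Cd74.

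Between the control groups, scASO against Mock gave 0% of genes called (272 at an unadjusted p under 0.05), and 128 genes or 0.747% with the block, 94 of them higher. None of the 10 genes was called in either. All 10 estimates were below 0 without the block, with a median of -0.35, and 9 of 10 with it, with a median of -0.24. These values keep the library labelled scASO replicate 2. In order of number, B2m stood at 669, 818, 591 and 815 CPM with scASO and 694, 1743, 744 and 805 CPM with Mock. Without Mock replicate 3 the unblocked estimates were 0.65 for H2-Aa, 0.465 for H2-Eb1, 0.44 for Cd74, 0.20 for Ciita and 0.0036 for Psmb8. Those of H2-K1, H2-D1, B2m, Tap1 and H2-Ab1 stayed below 0 whichever library was left out. The comparisons with ASOs share the scASO and Mock controls. Of the other pathway genes, none passed for both ASOs against Mock, where Cd40, a costimulatory receptor, stood at 0.88 ± 0.44 (adjusted p = 1), Ifngr1, a receptor chain of interferon gamma, at 0.42 ± 0.24 and H2-T23, a class I chain of the T region, at -0.29 ± 0.31. Nor did any pass against scASO, where H2-Q4 stood at 0.41 ± 0.24, Cd80, a costimulatory ligand, at -0.68 ± 0.35 and Ifngr1 at 0.28 ± 0.23.

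Whether the response to Malat1 ASO differed between organoids and tumors was tested as a difference of differences. It gave 0% of 18695 genes called (831 at an unadjusted p under 0.05), and none of the 10. The estimates were -1.41 ± 1.21 for H2-Aa, -1.27 ± 1.01 for H2-Eb1, -1.004 ± 1.03 for Cd74 and 0.02 ± 0.76 for H2-Ab1. Those of class I lay between -0.08 for Tap1 and 0.46 for H2-D1 and B2m.

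Over the 10 tumors Cd74 followed the mean log2 CPM of the other class II pathway genes, with Pearson's r = 0.803 (permutation p = 0.00126, adjusted over 28 relations 0.0176) and Spearman's rho = 0.842 (permutation p = 0.0034, adjusted 0.0476), both two-sided. Without the 2 tumors farthest from the median, r was 0.73. H2-K1 followed the other class I pathway genes, with r = 0.954 (permutation p = 4.8e-04, adjusted 0.0134) and rho = 0.903 (permutation p = 7e-04, adjusted 0.0196), and r was 0.812 without the 2 farthest tumors. With the macrophage markers Cd74 had r = 0.779, which did not pass (permutation p = 0.00852, adjusted 0.0793; rho = 0.564, permutation p = 0.0969, adjusted 0.271), and r was 0.214 without ASO1 tumors 2 and 3, so that it rests on them. With the dendritic cell markers r was 0.72 (permutation p = 0.0170, adjusted 0.0793) and rho 0.806 (permutation p = 0.0069, adjusted 0.0588), and r was 0.892 without the 2 farthest tumors. Markers of some other cells gave like values, T and NK cell markers r = 0.799 (permutation p = 0.0124, adjusted 0.0793) and rho = 0.745 (permutation p = 0.0169, adjusted 0.0946), with r = 0.50 without the 2 farthest tumors. Fibroblast markers gave r = 0.499 (permutation p = 0.140, adjusted 0.289) and rho = 0.794 (permutation p = 0.0084, adjusted 0.0588), with r = 0.757 without the 2 farthest tumors. Other lists gave lower values of r or rho for Cd74, and none passed. The r and rho were 0.658 and 0.261 with pan-leukocyte, 0.177 and 0.0545 with B cell, and 0.0837 and -0.0182 with endothelial markers. They were 0.505 and 0.648 with luminal, 0.554 and 0.176 with basal, 0.205 and 0.358 with adipocyte, and 0.135 and 0.224 with skeletal muscle markers. H2-K1 and the interferon gamma genes had r = 0.78 (permutation p = 0.0144, adjusted 0.0793) and rho = 0.685 (permutation p = 0.0348, adjusted 0.151), and r was 0.374 without the 2 farthest tumors. Skeletal muscle markers gave H2-K1 a like rho of 0.673 (permutation p = 0.0378, adjusted 0.151) with r = 0.508. Adipocyte markers gave rho = 0.636 (permutation p = 0.0541, adjusted 0.168) with r = 0.487. The remaining lists gave H2-K1 r from -0.529 (basal) to 0.514 (luminal) and rho from -0.539 (basal) to 0.43 (dendritic cell), and none passed. The tumors come from 3 treatment groups, and no group holds enough tumors for a value within it.

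**Figure D4:**
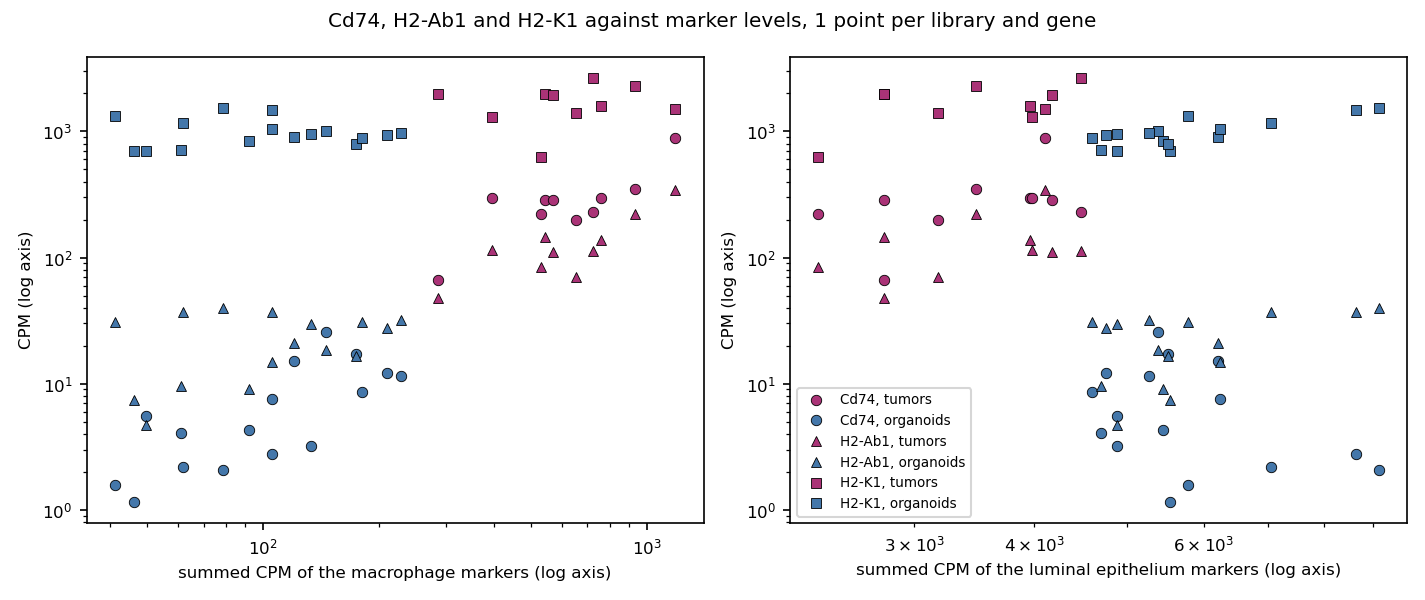
CPM of Cd74, H2-Ab1 and H2-K1 against the summed CPM of 10 macrophage markers (left) and of 5 luminal epithelial markers (right), on log axes, 1 point per library and gene. Tumors are in purple and organoids in blue. Macrophage markers lie at 287 to 1188 CPM in tumors and at 41.1 to 229 CPM in organoids, and Cd74 lies at 66.0 to 879 CPM and 1.15 to 25.7 CPM.

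The genes most like the class II mean (H2-Aa, H2-Ab1, H2-Eb1 and Cd74) over the 10 tumors, by Pearson's r of log2 CPM among 12993 genes, were Tlr12 (0.948), Cyp4f18 (0.927), Slamf7 (0.923), H2-DMa (0.922) and Ccl8 (0.921). Those most like the class I mean (H2-K1, H2-D1 and B2m) were Marveld1 (0.919), H2-Q6 (0.903), H2-T22 (0.902), 4930599N23Rik (0.899) and Oas1a (0.898). In the 16 organoids, among 12601 genes, those most like class II were Ntan1 (0.908), Gm18284 (0.905), Wdr45b (0.903), Rfesd (0.901) and Commd6 (0.901), and those most like class I were Rras (0.973), Acvrl1 (0.962), H2-Q4 (0.962), Pyroxd2 (0.951) and Epcam (0.944). The organoid libraries share 4 replicate numbers, so that these values rest on few separate sources, and they describe likeness in these libraries only. Class I heavy chains are near copies of one another, and reads that align to several places were not counted, so that the levels of H2-K1, H2-D1 and the H2-Q and H2-T genes are uncertain. Psmb8 and H2-Eb1 overlap the antisense genes Gm20496 and Gm20513 in GENCODE M21, which held at most 36 and 1 reads in a library, and Tap1 overlaps Psmb9, which was not analysed here.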

How the data were processed

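The authors deposited raw read counts per gene, which per the submitters' processing notes were made with STAR and HTSeq on the mouse build mm9; no label states a version or the strand setting. Reads aligned to several places were reported apart from the gene counts, at 24.1% to 44.0% of the reads in genes in tumors and 21.2% to 32.7% in organoids, and entered neither library sizes nor tests. Of 37310 gene IDs, 32620 matched a symbol. Counts were filtered with filterByExpr (minimum count 10, minimum total 15), scaled by TMM and tested with edgeR 4.0.16 in R 4.3.3 (limma 3.58.1, prior count 2) by the quasi-likelihood test, with Benjamini-Hochberg adjustment over all genes tested and a threshold of 0.05. Tumor comparisons were fitted over all tumors, organoid comparisons over all organoids, and comparisons between both over all libraries. Same-numbered organoids correlated in their deviations from group means in 24 of 24 pairs (0.469 to 0.934), and same-numbered tumors correlated above 0.1 in 2 of 9 pairs. The replicate block was therefore read beside the main fit for organoids only, and fits that block tumors were kept only as alternatives. No 2 replicates agreed within sampling noise (lowest chi-square per degree of freedom 14.0). Alternatives were RLE size factors, no filter, the block, only the compared groups, DESeq2 1.42.0, and leaving out libraries. The scripts were tested on simulated data. The 10 genes and all lists were chosen with earlier results of these data known. Beyond the 10 genes and Malat1, the rule named, per list and comparison, up to 4 called genes per direction with the smallest p or else the gene with the smallest p, Ptprc, and the 5 genes most alike in pattern (mean log2 CPM 1 or higher). Ctss, H2-DMa, Nlrc5, Irf1, Cd68 and the RFX genes are named outside it, for their roles and after their values were seen. Positions are on GRCm38, not converted from mm9.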

Additional observations from a re-analysis of the deposited data

Results flagged for a closer look

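B2m stood at 1743 CPM in Mock organoid replicate 2, against 694 to 805 CPM in the other 3 Mock organoids. The gap to the nearest other library was 0.894 of the range of the group, above the limit that Dixon's test sets for 4 samples. B2m was also high in the number 2 libraries of ASO1 and ASO2 organoids, at 1746 and 2022 CPM. Ciita stood at 3.74 CPM in ASO2 organoid replicate 3, against 1.11 to 1.496 CPM in the other 3 ASO2 organoids, with a gap of 0.853 of the range. Ciita was near this level in the number 3 libraries of the other organoid groups, at 3.70 to 4.34 CPM. These were 2 of 50 groups tested, and chance alone flags about 1 in 20.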

How the results depend on the processing

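The direction of the organoid against tumor difference held for all 10 genes under every alternative, and the number called among them was 4 to 6 over the fits that left out a scASO library, 4 without both libraries that go against their labels, and 7 to 9 under the other alternatives. The count of all genes called there was 2632 (without scASO tumor 3) to 4278 when a library was left out, and 11149 for the mean of all organoid groups against the mean of all tumor groups, in which H2-D1 (-0.46, adjusted p = 0.0154) and Tap1 (-0.48, adjusted p = 0.0278) also passed. DESeq2 called H2-D1 too (-0.77, adjusted p = 0.0494). No blocked fit was made for it, since the labels do not link the replicate numbers of tumors to those of organoids. In tumors the count for ASO1 against scASO was 3 with no filter, 0 with the replicate block, 0 with only the compared groups, 130 in DESeq2 and 0 to 1 when a library was left out. For ASO2 it was 44 in DESeq2 and 0 to 1 when a library was left out, and for both ASOs 18 in DESeq2. In organoids the count for both ASOs against Mock was 738 with the replicate block, 5 in DESeq2, 1 without both libraries and 1709 with the block and without both, where 1 of the 10 genes and 9.86% of all genes were called. For scASO against Mock it was 128 with the block and 308 with the block and without both libraries, and against scASO it was 4 for both ASOs, 1 for ASO1 and 3 for ASO2 with the block and without both. The difference of differences gave 57 genes with the block, 2 in DESeq2 and 0 to 1 when a library was left out. That block also grouped tumors by number, although same-numbered tumors did not deviate together. Signs turned for estimates that had not passed. When a library was left out, the tumor estimates for both ASOs ran from -0.16 to 0.14 for H2-D1, -0.042 to 0.35 for H2-K1, -0.041 to 0.91 for H2-Eb1 and -0.36 to 0.62 for Cd74. The organoid estimates against scASO ran from -1.09 to 0.26 for H2-Aa and -0.92 to 0.082 for H2-Eb1, and with the block and without both libraries were -0.092 for Tap1 and -0.15 for H2-Ab1. Those against Mock ran from -0.027 to 0.56 for B2m, -0.19 to 0.092 for Tap1, -0.041 to 0.24 for H2-K1, -0.022 to 0.47 for Psmb8 and -0.049 to 0.56 for H2-Ab1, and B2m was at -0.029 with the block and without both libraries. The cause of these changes was not tested. Groups held 3 or 4 libraries, and levels among tumors differed over 10-fold in H2-Aa, H2-Eb1 and Cd74 and 7.08-fold in H2-Ab1. Changes of the size seen in the class II chains could not be told from this spread.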
